A study of Homo sapiens with 20 samples.

Results

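The 10 imprinted genes H19, IGF2, MEST, PEG3, PEG10, SNRPN, NNAT, DLK1, MEG3 and CDKN1C were taken by symbol from an expression table of 36076 genes. mRNA-seq was done in 6 human lung cancer lines (H1299, H1792, A549, PC9, CL1-0 and CL1-5), each as a PBS-treated culture (Mock) and a culture given the DNA methyltransferase inhibitor decitabine (DAC) at 100 nM for 72 h and then grown for 3 days without drug. Omni-ATAC-seq, which maps open chromatin with a transposase, was done in A549, CL1-5, PC9 and H1299 under both treatments. A single library was made per line and treatment, so the lines were the replicates and no test was possible within a line. CL1-0 and CL1-5 are sublines of the same parent line and are not fully independent.

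An imprinted gene is transcribed from the copy inherited from the mother or from the father, and the choice is held by DNA methylation of a nearby control region that was set in the egg or sperm. H19, MEG3 and CDKN1C are expressed from the maternal copy, and IGF2, MEST, PEG3, PEG10, SNRPN, NNAT and DLK1 from the paternal copy. Decitabine is built into new DNA, traps DNA methyltransferases and lowers methylation of both copies. Parental copies were not separated in the expression table, so each value was the sum over both, and a lower share of expressing cells and less RNA per cell could not be told apart in these bulk cultures.

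mRNA levels were deposited as FPKM, fragments scaled by transcript length and library depth, and read numbers were worked back from the table. Libraries held between 22234485 and 25303899 reads on genes, except H1299 with 59735913 in Mock and 52634234 after DAC. The 95% intervals of levels below are exact Poisson intervals, and those of ratios come from exact binomial intervals on the reads of the Mock and DAC libraries. Both kinds cover counting error only. For H1299, whose reads were mostly counted in pairs, they were computed on the number of pairs. A gene with 3 reads or fewer was called undetected. The labels of 4 ATAC-seq libraries and the names inside their peak lists exchanged CL1-5 and PC9, and the mRNA sided with the names inside the lists. For 138 genes whose mRNA was present in PC9 and not in CL1-5, promoter peaks before treatment were found for 95.7% under the CL1-5 label and 53.6% under the PC9 label; for 79 genes with the opposite pattern these shares were 63.3% and 88.6%. These libraries are called by their labels below. The 5 epithelial markers summed to between 0.986 and 3015 FPKM in Mock libraries, the 5 alveolar markers to at most 0.811 FPKM in any library, and the defining blood genes PTPRC and CD3E reached at most 0.0759 and 0.0304 FPKM. The fibroblast, blood and endothelial marker sums were higher after DAC in 6 of 6 lines, reaching 95.6, 7.50 and 1.74 FPKM, and the neuroendocrine sum in 2 of 6; the part of other cell types in the values below was not tested.

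The control region of H19 and IGF2 lies upstream of H19 and is known for repeated binding sites of CTCF, an insulator protein that binds them when they are unmethylated. The reference genome (GRCh37) was searched, from the H19 start of the peak lists (chromosome 11, position 2019065) to 10000 bp upstream, for the longest word with at least 5 copies. The longer GENCODE span of H19, 2016396 to 2025782, reaches past this start, so the copies below are upstream of the list start and inside that span. It had 30 bases and 5 copies, and it occurred nowhere else on the autosomes and X, neither in the 10000 bp upstream of 20098 protein-coding genes nor in 35116 RefSeq promoter windows of 300 bases. The copies are shown because the open chromatin described below fell on them. They are printed on the minus strand, the strand of H19, with the shared word in capitals and 10 bases on either side; copies with a changed base inside the word were not counted.
H19 copy 2111 bp upstream, chr11:2021166-2021215: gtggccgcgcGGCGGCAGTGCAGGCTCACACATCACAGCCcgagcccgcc
H19 copy 2517 bp upstream, chr11:2021572-2021621: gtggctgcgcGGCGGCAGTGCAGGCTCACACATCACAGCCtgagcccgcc
H19 copy 2923 bp upstream, chr11:2021978-2022027: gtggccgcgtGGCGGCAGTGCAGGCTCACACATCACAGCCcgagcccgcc
H19 copy 4356 bp upstream, chr11:2023411-2023460: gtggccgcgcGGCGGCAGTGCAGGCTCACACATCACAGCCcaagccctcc
H19 copy 5162 bp upstream, chr11:2024217-2024266: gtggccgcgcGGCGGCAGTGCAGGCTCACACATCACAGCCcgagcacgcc
With their flanks the copies held 4 to 6 CpGs, the positions that DNA methyltransferases act on.

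Promoter windows of 300 bases from the RefSeq table (GRCh38.p14) were found for 4 members, H19, MEST, MEG3 and SNRPN, with 13 windows in all, and each matched GRCh37 exactly at a single place. A window held a median of 14.0 CpGs over all genes, with a median observed-to-expected ratio of 0.58. For MEST and SNRPN, 1 window each is shown among the 3 of each gene that overlapped a peak in any library. For SNRPN it is the window with peaks in the most libraries, 6 of 8, and for MEST the one with more CpGs of the 2 overlapping windows with peaks in 7 of 8; these SNRPN and MEST windows had no peak in either H1299 library and in H1299 Mock, respectively. A further MEST window, chr7:130130920-130131219, did overlap a peak in H1299, at 3.30 in Mock and 2.66 after DAC. The MEST windows at chr7:130131649-130131948 and chr7:130131676-130131975, with 22 and 25 CpGs, overlapped no peak in any library and are not printed. Which MEST start is under imprinted control was not tested, so the printed window is not taken as that promoter. The 250 bases upstream of the start are given on the plus strand with CpGs in capitals.
MEST, chr7:130125938-130126187 (GRCh37): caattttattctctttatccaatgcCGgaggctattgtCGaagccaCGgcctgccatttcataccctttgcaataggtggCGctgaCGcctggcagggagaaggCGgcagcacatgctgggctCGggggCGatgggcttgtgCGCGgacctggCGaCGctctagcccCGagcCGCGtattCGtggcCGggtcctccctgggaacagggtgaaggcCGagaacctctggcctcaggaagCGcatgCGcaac
SNRPN, chr15:25199884-25200133 (GRCh37): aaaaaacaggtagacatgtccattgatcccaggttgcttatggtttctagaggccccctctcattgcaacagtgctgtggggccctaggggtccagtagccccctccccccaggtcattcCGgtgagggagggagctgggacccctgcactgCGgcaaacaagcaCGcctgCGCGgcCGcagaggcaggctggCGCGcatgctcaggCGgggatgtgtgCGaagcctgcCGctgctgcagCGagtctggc
The full MEST window held 22 CpGs (ratio 0.81) and the full SNRPN window 18 (ratio 0.58). The 3 MEG3 windows held 17 to 19 CpGs, and the H19 window held 6, with a ratio of 0.24. The GC box GGGCGG was in neither printed window and in 45.0% of all windows, counting both strands. The MEST windows without a peak held 2 copies each.

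No member passed the adjusted threshold after DAC over the 5 lines of the study's comparison, which left out H1792, and 6 of the 9 tested members, H19, IGF2, MEST, PEG3, PEG10 and NNAT, were higher and CDKN1C lower at an unadjusted p under 0.05. Values were compared as log2(FPKM + 0.1) with limma, the cell line as block, over 22603 genes with a mean of at least 0.1 FPKM. DLK1 did not reach that mean; each of the other 9 also reached it in the Mock libraries alone. Of all genes, 0.119% were higher and 0% lower at an adjusted p under 0.05. At an unadjusted p under 0.05, 8.07% of all genes were higher (1825) and 4.40% lower (994), a split that became 1130 and 1668 with quantile normalization and 2496 and 536 when the values were rescaled to a common sum. Members then numbered 5 higher and 1 lower, and 6 higher and 0 lower. The member count was smaller under other choices: 4 higher and 0 lower with H1792 added, 2 and 0 without the cell line block, 3 and 0 at a mean of at least 1 FPKM, and 4 and 1 with no trend. With a line left out it was 5 and 0 without A549, 3 and 1 without CL1-0, 4 and 0 without CL1-5, 6 and 0 without PC9, and 3 and 0 without H1299. The median log2 fold change was 0.60 over the 9 members and 0.07 over all genes. H19, IGF2, PEG3, PEG10 and NNAT were higher in 5 of 5 lines, as were 6.76% of all genes, and CDKN1C was lower in 5 of 5, as were 4.39%. These counts include differences of very few reads. PEG3 went from 0 reads to 1 in A549 and to 2 in PC9, which is undetected by the rule above. NNAT in PC9 went from 3 reads to 7, and the counting interval of its ratio included 1.

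**Figure D1:**
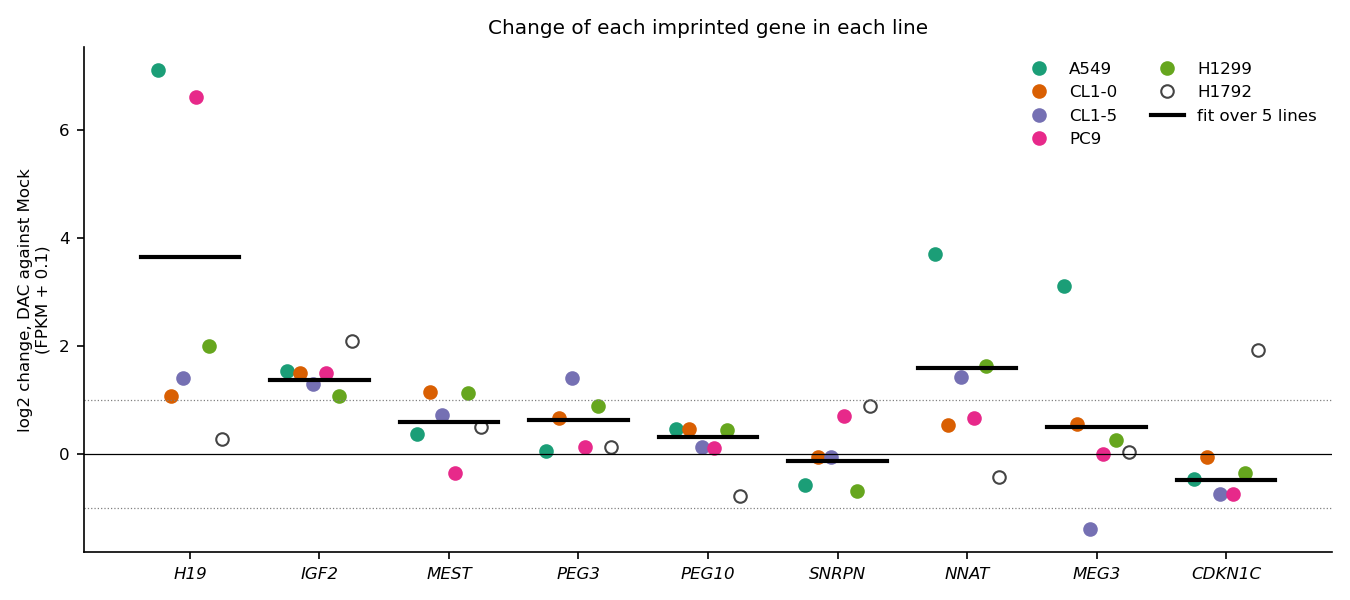
Log2 change of each of the 9 tested imprinted genes after DAC in each line, on the log2(FPKM + 0.1) scale; points are single libraries compared with their Mock library, bars are the fitted mean over 5 lines, H1792 (open) is outside that fit, and dotted lines mark 2-fold. H19 spans 0.28 to 7.12 and IGF2 lies at or above 1.08, while MEG3 is 3.11 in A549 and -1.40 in CL1-5.

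Within single lines, the members at least 2-fold higher were 4 of 9 in A549 (H19, IGF2, NNAT and MEG3), where 15.5% of all genes were, and 3 of 9 in CL1-0 (H19, IGF2 and MEST), where 7.60% were. In CL1-5 they were 4 of 9 (H19, IGF2, PEG3 and NNAT; 7.25% of all genes), and in PC9 2 of 9 (H19 and IGF2; 10.2%). In H1299 H19, IGF2, MEST and NNAT passed 2-fold, 4 of 9 beside 8.18% of all genes, and in H1792 IGF2 and CDKN1C, 2 of 9 beside 10.3%. MEG3 in CL1-5 was the only member at least 2-fold lower in any line; of all genes, 5.05% were 2-fold lower in CL1-5, 6.69% in A549, 5.79% in H1792, 3.15% in H1299, 3.10% in PC9 and 2.14% in CL1-0. These counts are on the log2(FPKM + 0.1) scale, which understates changes of low genes.

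H19 makes a long noncoding RNA that is processed to a microRNA and is abundant in fetal tissue (chromosome 11, 2016396 to 2025782, minus strand). In A549 it was at 4.38 FPKM in Mock (265 reads) and 622 FPKM after DAC (44419 reads), a 142-fold higher level (95% interval 126 to 161). In PC9 it was at 0.630 FPKM (37 reads) and 71.8 FPKM (4692 reads), 114-fold higher (82.5 to 162). The lines with the highest Mock levels, CL1-0 at 27.2 FPKM and CL1-5 at 23.5 FPKM, had 57.6 and 62.6 FPKM after DAC, 2.12-fold (2.01 to 2.24) and 2.66-fold (2.52 to 2.82) higher. PC9, CL1-0 and CL1-5 thus held similar H19 levels after DAC from very different Mock levels, and A549 stood above them. In H1299 H19 was at 0.0743 FPKM (12 reads) in Mock and 0.603 FPKM (90 reads) after DAC, 8.12-fold higher (3.45 to 23.3). In H1792 it was at 0.0428 FPKM (3 reads) and 0.0738 FPKM (5 reads), a ratio of 1.72 (0.335 to 11.1), which was not a detectable difference at this depth. In the Mock order, CL1-0, CL1-5, A549, PC9, H1299 and H1792, only H1299 and H1792 had overlapping intervals. The mean was 11.2 ± 13.1 FPKM (SD, n = 5 lines) in Mock and 163 ± 258 FPKM after DAC, and the log2 fold change was 3.65 (SE 0.98, adjusted p = 0.268 from limma), higher in 5 of 5 lines.

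**Figure D2:**
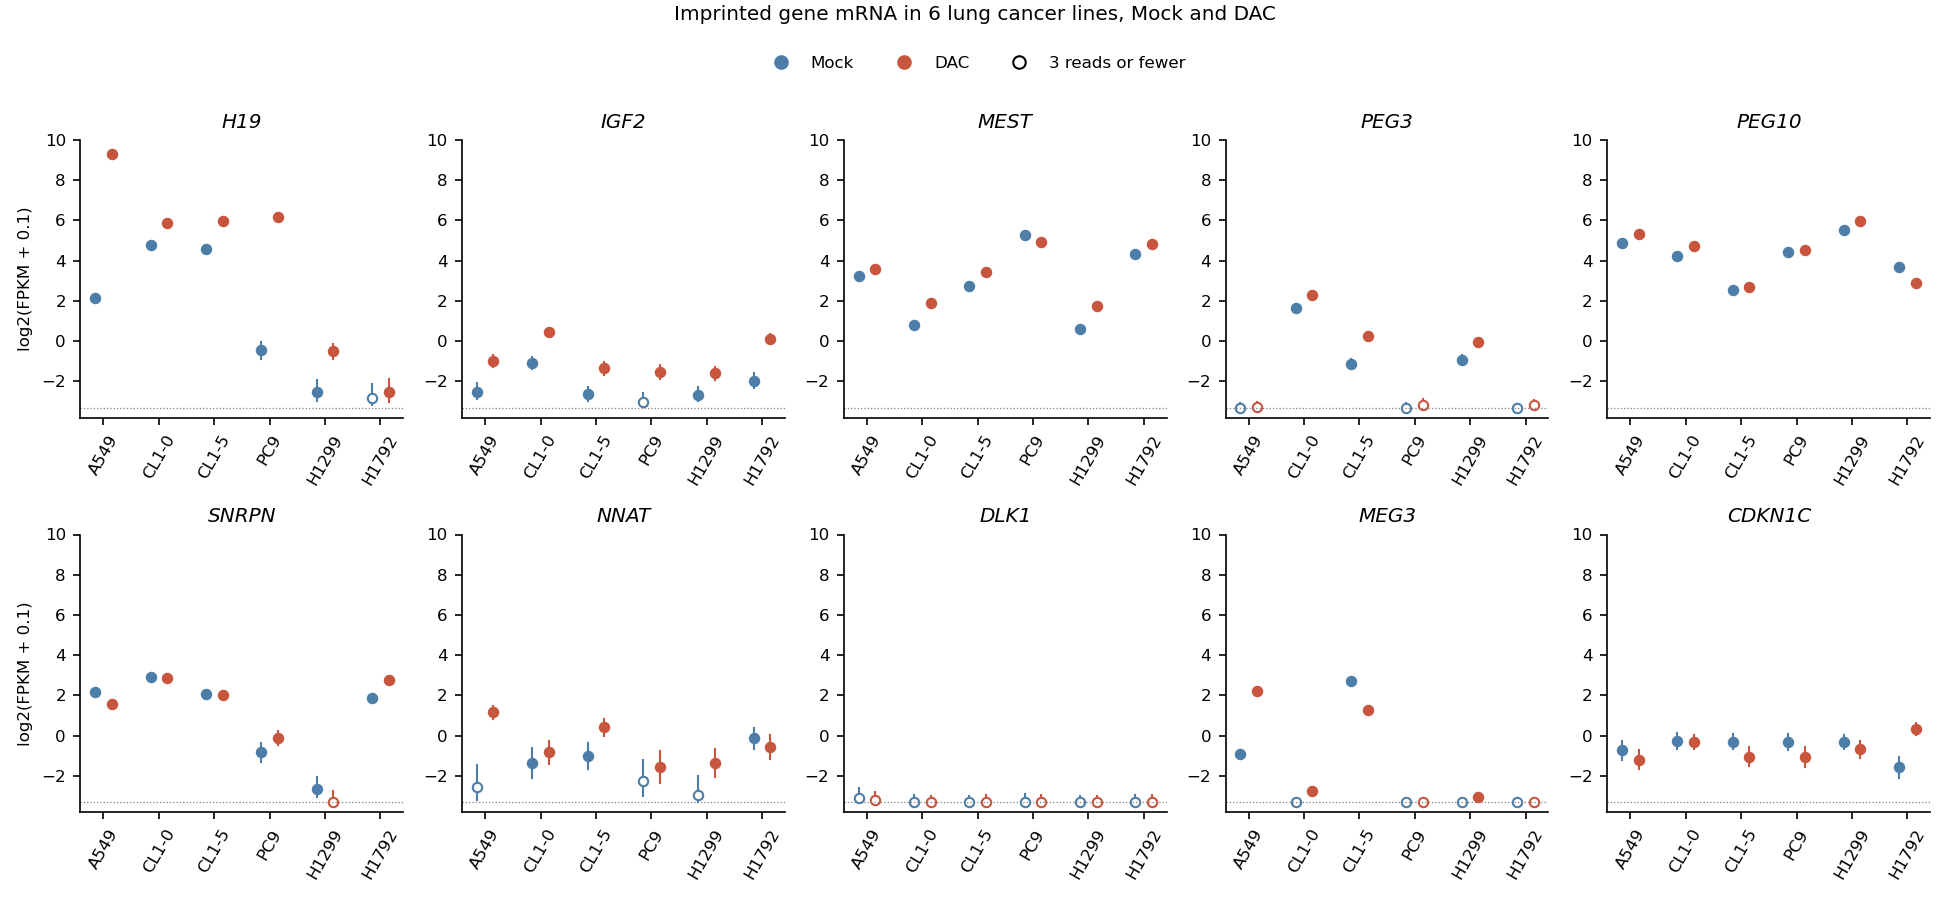
Level of each imprinted gene in each library as log2(FPKM + 0.1), by cell line, in Mock (blue) and after DAC (red); vertical bars are 95% counting intervals, open points are libraries with 3 reads or fewer, and the dotted line is 0 FPKM. H19 reaches 622 FPKM in A549 after DAC, PEG3 and MEG3 lie at or near 0 in several lines, and all DLK1 points are open.

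IGF2 encodes a fetal growth factor that signals through the IGF1 and insulin receptors, and it was low in every library (chromosome 11, 2150342 to 2179621, minus strand). In Mock, CL1-0 had 0.372 FPKM, H1792 0.155, A549 0.0746, CL1-5 0.0590, H1299 0.0559 and PC9 0.0231, on 3 to 55 reads. After DAC, the same lines had 1.25, 0.992, 0.404, 0.289, 0.230 and 0.249 FPKM, on 36 to 231 reads. Every line was higher after DAC, although the 2 groups overlapped. In Mock only CL1-0 stood above its neighbour in the order by more than the counting intervals. The ratio was 5.42 in A549 (2.77 to 11.8), 3.35 in CL1-0 (2.49 to 4.58), 4.91 in CL1-5 (2.43 to 10.9), 4.11 in H1299 (2.01 to 9.25) and 6.42 in H1792 (4.15 to 10.3). In PC9 it was 10.8 (3.40 to 54.7), with 3 Mock reads. Over 5 lines the log2 fold change was 1.38 (SE 0.21, adjusted p = 0.0857 from limma), the 55th smallest p of all genes. With H1792 as the 6th line it was 1.50 (SE 0.20, adjusted p = 0.0310), and IGF2 then rose past the threshold, as 0.232% of all genes did. With a pseudocount of 1 in place of 0.1, IGF2 was 2-fold higher in 0 of 6 lines. IGF2-AS overlaps IGF2 on the other strand, and the strand setting of the counting was not given in the sources used here.

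Open chromatin at the H19 start was present in both A549 libraries (fold enrichment 2.76 in Mock and 2.78 after DAC, chr11:2019081-2019772 and chr11:2018838-2020012), in both H1299 libraries (2.94 and 2.42) and in both libraries labelled PC9. In the libraries labelled CL1-5, whose lists are named PC9, no peak lay at the start in Mock and a peak of 2.52 did after DAC (chr11:2019076-2020086). All these peaks were weak: where the lists assigned them to H19, they ranked between the 1.35 and 11.1 percentile of genes with a promoter peak in their library. Further upstream, a peak over the distal copies, 4356 and 5162 bp from the start, was present in A549 (3.07 in Mock and 3.73 after DAC) and H1299 (2.84 and 2.73), though the A549 Mock peak left out the copy at 4356 bp. In the libraries labelled CL1-5 a narrow peak covered the copy at 5162 bp alone, at 5.21 in Mock and 3.52 after DAC. In those labelled PC9 the peaks lay over the proximal copies instead, at 2.78 in Mock over those at 2111, 2517 and 2923 bp and at 2.30 after DAC over the copy at 2923 bp and the edge of that at 2517 bp. The upstream peaks were thus present in Mock in every line tested, also where H19 mRNA was near 0.

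**Figure D3:**
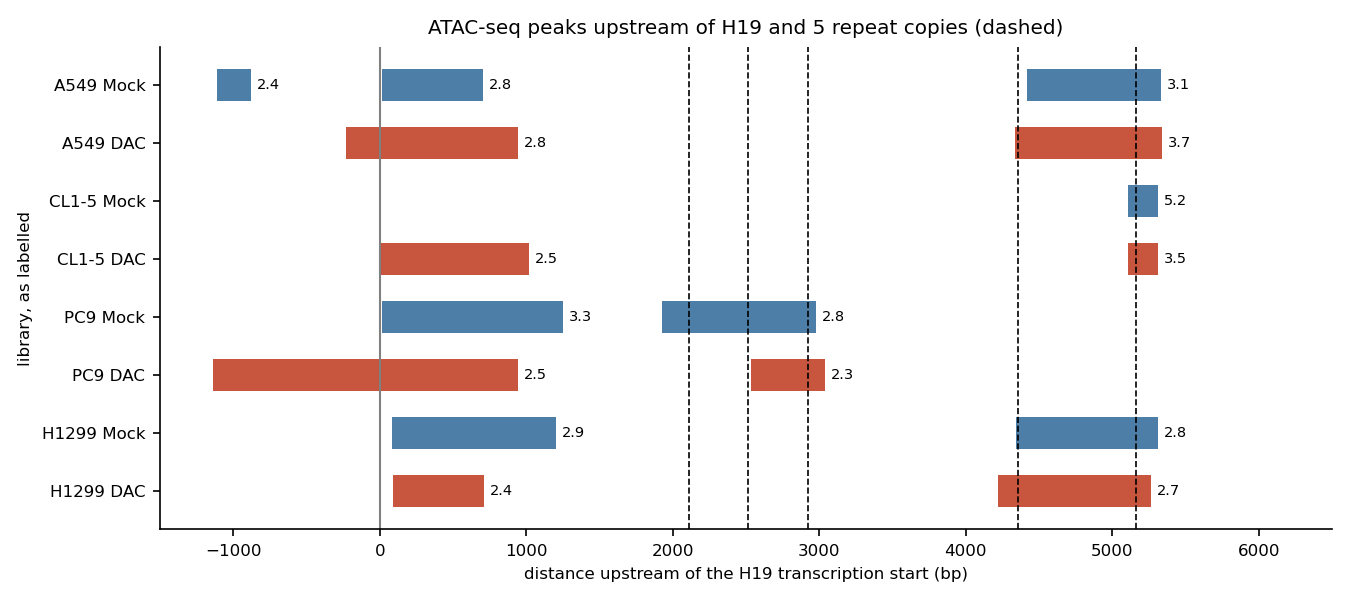
ATAC-seq peaks (bars, with their fold enrichment) by distance in bp from the H19 transcription start (grey line, 0 bp; positive is upstream) in the 8 libraries named by label, Mock in blue and DAC in red; dashed lines are the 5 repeat copies. The library labelled CL1-5 has a peak at the start only after DAC, and those labelled PC9 have peaks over the proximal copies.

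CDKN1C encodes p57, an inhibitor of cyclin-dependent kinases that limits growth, and lies in the neighbouring domain of the same cluster (chromosome 11, 2904443 to 2907005, minus strand). In Mock the 5 lines of the fit were close together, CL1-0 at 0.737 FPKM, CL1-5 at 0.713, PC9 at 0.707, H1299 at 0.703 and A549 at 0.505, with overlapping intervals along the whole order. After DAC these were at 0.705, 0.382, 0.384, 0.527 and 0.336 FPKM. H1792 had the lowest Mock level, 0.234 FPKM (15 reads), and the highest after DAC, 1.16 FPKM (72 reads), a ratio of 4.96 (2.82 to 9.32). The log2 fold change over 5 lines was -0.48 (SE 0.19, adjusted p = 0.386 from limma) and over 6 lines -0.08 (SE 0.35, adjusted p = 0.951). Counting intervals of the ratio lay below 1 in CL1-5 (0.315 to 0.888) and PC9 (0.309 to 0.936) and included 1 in A549, CL1-0 and H1299. All 8 ATAC-seq libraries had a peak at the CDKN1C start, with fold enrichments of 2.72 to 4.68.

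Other genes of the chromosome 11 cluster differed at least 2-fold in the same line as a member in A549 and H1792. In A549, KCNQ1OT1, the noncoding RNA of the CDKN1C domain, was at 0.485 FPKM in Mock and 1.49 FPKM after DAC (log2 change 1.44), and SLC22A18, a transporter gene, at 11.5 and 5.41 FPKM (log2 change -1.08). In H1792, where CDKN1C and IGF2 were higher, SLC22A18 was at 0.554 and 1.43 FPKM (log2 change 1.23). The same gene was therefore lower in A549 and higher in H1792.

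PEG10, derived from a retrotransposon and needed for the placenta, was detected at 5.74 FPKM or more in every library (chromosome 7, 94285637 to 94299007, plus strand). In Mock H1299 had 45.4 FPKM, A549 28.9, PC9 21.3, CL1-0 19, H1792 12.8 and CL1-5 5.74, with no overlapping intervals along the order. After DAC the same lines had 62.2, 39.7, 23.0, 26.5, 7.43 and 6.25 FPKM. H1792 alone was lower, with a ratio of 0.578 (0.538 to 0.621), and the others lay between 1.08 and 1.39. The log2 fold change over 5 lines was 0.32 (SE 0.11, adjusted p = 0.333 from limma), and with H1792 added 0.14 (SE 0.18). Its strongest promoter peak, 1159 to 1430 bp downstream of the start, had a fold enrichment of 8.26 to 11.0, between the 89.9 and 99.4 percentile of genes with a peak in each library. SGCE, which starts beside PEG10 on the other strand and is imprinted too, had log2 changes from -0.48 in A549 to 0.46 in H1792, lower in 4 of 6 lines.

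MEST, which encodes a hydrolase-like protein of fetal mesoderm, differed widely between lines in Mock (chromosome 7, 130126012 to 130146306, plus strand). It was at 38.8 FPKM in PC9, 19.8 in H1792, 9.26 in A549, 6.49 in CL1-5, 1.62 in CL1-0 and 1.40 in H1299, and only the last pair had overlapping intervals. The 2 lowest lines were the ones past 2-fold after DAC, CL1-0 at 3.68 FPKM (ratio 2.27, 1.91 to 2.71) and H1299 at 3.20 FPKM (ratio 2.27, 1.91 to 2.72). A549 was at 12 FPKM after DAC, CL1-5 at 10.8, H1792 at 28.0 and PC9 at 30.2, the last a ratio of 0.778 (0.742 to 0.816). The log2 fold change over 5 lines was 0.60 (SE 0.23, adjusted p = 0.365 from limma), higher in 4 of 5. At the promoter printed above, peaks of 5.35 to 6.99 were present in both A549 libraries and in those labelled CL1-5 and PC9. In H1299 no peak was there in Mock, and after DAC a peak of 3.85 lay at chr7:130125980-130126382. The libraries labelled CL1-5 also had a weaker peak downstream. It was 3.07 in Mock (chr7:130132008-130132260) and 3.05 after DAC (chr7:130131989-130132340). CPA4, an imprinted carboxypeptidase gene near MEST, was at 0.433 FPKM in Mock and 5.86 FPKM after DAC in H1299 (log2 change 3.48). It was also past 2-fold in A549 (ratio 5.17), H1792 (3.33) and PC9 (4.70), the line where MEST was lower. In CL1-0, where MEST passed 2-fold, and in CL1-5 the log2 changes of CPA4 were 0.84 and -0.39. COPG2 and MESTIT1 overlap MEST on the other strand.

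PEG3, a zinc finger gene, was detected in 3 of 6 lines (chromosome 19, 57321445 to 57352096, minus strand). It was at 3.05 FPKM in CL1-0, 0.358 in CL1-5 and 0.424 in H1299 in Mock, and at 4.87, 1.11 and 0.863 FPKM after DAC. The ratios were 1.59 (1.45 to 1.75), 3.11 (2.44 to 4.01) and 2.03 (1.62 to 2.60), all above 1. A549, PC9 and H1792 had 0 reads in Mock and 1 or 2 after DAC, so no fold was computed there. The log2 fold change over 5 lines was 0.63 (SE 0.26, adjusted p = 0.389 from limma). ZIM2, which shares its first exons with PEG3 and can share its reads, was at 0.123 FPKM in Mock and 1.02 FPKM after DAC in H1299 (log2 change 2.32). A peak within 3000 bp of a PEG3 start of the peak lists appeared only after DAC, in A549 (3.15) and the library labelled CL1-5 (3.02). These peaks lay inside the gene, 2449 and 2716 bp downstream of that start (chr19:57333457-57333660 and chr19:57332913-57333393). Both were weak, with −log10 q-values of 1.60 and 1.44, and the list of the library labelled CL1-5 is named PC9.

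NNAT encodes a small membrane protein of developing neurons and lies inside an intron of BLCAP on the other strand (chromosome 20, 36149608 to 36152092, plus strand). In Mock H1792 had 0.808 FPKM, CL1-5 0.398, CL1-0 0.294, PC9 0.111 (3 reads), A549 0.0720 (2 reads) and H1299 0.0270 (2 reads). After DAC the same lines had 0.578, 1.2, 0.469, 0.233, 2.13 and 0.292 FPKM. The ratio was 29.7 in A549 (7.91 to 250), 3.11 in CL1-5 (1.65 to 6.20) and 10.8 in H1299 (1.54 to 470). The intervals included 1 in CL1-0 (0.680 to 4.03), PC9 (0.478 to 12.6) and H1792 (0.370 to 1.4). The log2 fold change over 5 lines was 1.59 (SE 0.46, adjusted p = 0.283 from limma), higher in 5 of 5. BLCAP itself had log2 changes between -0.29 and 0.19. Only the libraries labelled PC9 had a peak near the NNAT start, at 3.64 in Mock and 4.32 after DAC. L3MBTL1, an imprinted gene listed with NNAT and past 2-fold in the same line, was at 0.315 and 0.741 FPKM in A549 (log2 change 1.02). Its distance from NNAT was not measured, and it is not taken as a neighbour.

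SNRPN encodes a splicing protein from the Prader-Willi region, whose imprinting centre covers its first exon (chromosome 15, 25068784 to 25223870, plus strand). In Mock it was at 7.55 FPKM in CL1-0, 4.40 in A549, 4.16 in CL1-5 and 3.59 in H1792, against 0.460 in PC9 (28 reads) and 0.0597 in H1299 (10 reads). After DAC it was at 7.28, 2.90, 4.01, 6.70, 0.811 and 0 FPKM in that order. PC9 and H1299 stood below the other lines under both treatments. The ratio was 1.76 in PC9 (1.10 to 2.89), 1.87 in H1792 (1.60 to 2.18) and 0.660 in A549 (0.550 to 0.792). In CL1-0 and CL1-5 it was 0.964, with 1 inside both intervals. H1299 had 10 reads in Mock and 0 after DAC, with overlapping counting intervals (0.0194 to 0.139 and 0 to 0.0477 FPKM). This was not a detectable difference at this depth. Over 5 lines the log2 fold change was -0.13 (SE 0.23, adjusted p = 0.815 from limma), and 0.04 with H1792 added. SNHG14, the long host transcript that starts with SNRPN, overlaps SNRPN, as SNURF does. In Mock SNHG14 was lowest in the same 2 lines, at 0.0421 FPKM in PC9 and 0.0402 in H1299 against 0.886 to 2.46 FPKM elsewhere. After DAC it was higher in 4 of 6 lines and lower in 2. In A549, where SNRPN was lower, SNHG14 was at 2.64 FPKM after DAC (ratio 2.98, 2.74 to 3.25). In PC9 it was at 0.157 FPKM (ratio 3.73, 2.52 to 5.68). Peaks lay at the SNRPN promoter printed above in both A549 libraries and in those labelled CL1-5 and PC9 (fold enrichment 3.49 to 5.65), and in neither H1299 library. SNRPB, a near-identical gene on another chromosome whose reads can be exchanged with SNRPN, was at 124 to 414 FPKM in Mock.

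MEG3 makes a maternally expressed noncoding RNA, and in the same cluster DLK1 encodes a Notch-related membrane ligand of the paternal copy (chromosome 14, 101245747 to 101327368 and 101192042 to 101204561, plus strand). MEG3 was at 6.36 FPKM in CL1-5 (2716 reads) and 0.432 FPKM in A549 (146 reads) in Mock, and had 0 reads in CL1-0, PC9, H1299 and H1792. After DAC it was at 2.35 FPKM in CL1-5, a ratio of 0.369 (0.342 to 0.399), and at 4.49 FPKM in A549, a ratio of 10.4 (8.77 to 12.4). The 2 lines that expressed MEG3 in Mock thus differed in opposite directions. CL1-0 and H1299 had 22 and 16 reads after DAC, 5.85-fold and 5.77-fold a floor of 3 reads, which for H1299 did not allow for pairs. Intervals in CL1-0 were 0 to 0.00991 FPKM in Mock and 0.0295 to 0.0713 FPKM after DAC. In H1299 they were 0 to 0.00818 and 0.00829 to 0.0378 FPKM, so the difference there was barely beyond counting error. PC9 stayed at 0 and H1792 had 1 read after DAC. Over 5 lines the log2 fold change was 0.50 (SE 0.57, adjusted p = 0.714 from limma), and without A549 it was -0.15. DLK1 had at most 2 reads in any library, which left it undetected in 6 of 6 lines. In A549 DIO3, a thyroid hormone deiodinase gene of the paternal copy, had 0 reads in Mock and 3.82 FPKM after DAC, 57.3-fold a floor of 3 reads. In the same line MEG9 was at 0.0353 and 0.404 FPKM (log2 change 1.9). Within 3000 bp of a MEG3 start of the peak lists, A549 had no peak in Mock and 2 after DAC. The stronger, at 4.47, lay 1634 bp upstream of a start, and the other, at 3.70, lay at chr14:101294431-101294989. For the other libraries the strongest peak is given. The libraries labelled PC9, whose lists are named CL1-5, had 5.23 in Mock and 5.68 after DAC, and those labelled CL1-5 had 2.89 in Mock and none after DAC. H1299, with no MEG3 read in Mock, had a peak of 3.09 in Mock and 3.04 after DAC.

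Across the members, a promoter peak (assigned to the gene by the lists and within 3000 bp of a start) was present for 6 of 10 in A549 Mock and 8 after DAC, with MEG3 and PEG3 gained, 2 of 10 beside 8.98% of 19052 genes, and none lost beside 4.38%. The libraries labelled CL1-5 had 7 and 7, with H19 and PEG3 gained (6.41% of all genes) and DLK1 and MEG3 lost (4.88%). Those labelled PC9 had 9 and 8, with none gained (8.59%) and DLK1 lost (4.19%), and H1299 had 5 and 5, with MEST gained (8.51%) and IGF2 lost (4.31%). Of all genes, 71.7% to 80.8% had a peak in Mock and 75.9% to 83.0% after DAC. Lists held 45354 to 97584 peaks, and each DAC list was longer than its Mock list; the part of list length in the gained peaks was not tested. IGF2 peaks, 2.81 to 3.89 in the 7 libraries that had one, covered more than a single start of the gene.

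**Figure D4:**
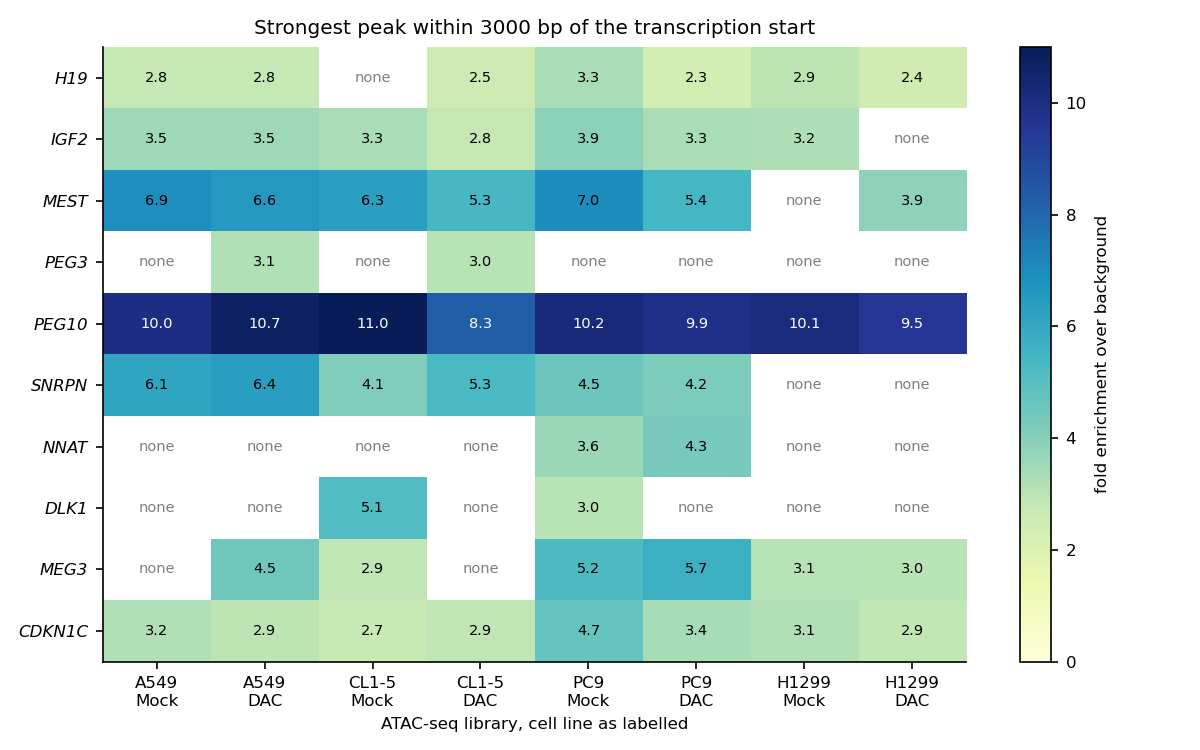
Fold enrichment of the strongest ATAC-seq peak within 3000 bp of a start, among those the lists assign to each imprinted gene (rows), in each library (columns, cell line as labelled); "none" marks no peak. PEG10 lies between 8.26 and 11.0 in all 8 libraries, SNRPN has no peak in H1299, and MEST has none in H1299 Mock.

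Of 56 other imprinted genes listed, 54 were in the table and 43 were tested, with a median log2 fold change of 0.21. None passed the adjusted threshold by limma; at an unadjusted p under 0.05, 5 were higher (8.07% of all genes) and 0 lower (4.40%). The highest were CPA4 at 1.67 (SE 0.51, adjusted p = 0.298), from 1.26 ± 1.9 to 6.25 ± 8.98 FPKM (SD, n = 5), and DIO3 at 1.60 (SE 0.73), higher in 5 of 5 lines but not past the unadjusted threshold. The lowest were SLC22A18 at -0.39 (SE 0.27) and KCNQ1 at -0.33 (SE 0.27). Besides CPA4, the genes past the unadjusted threshold were TFPI2, ERAP2, LIN28B and ZNF597, at 1.41, 0.98, 0.75 and 0.48, and were named after their values were seen. H19 lay above all of these and CDKN1C below all of them.

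**Figure D5:**
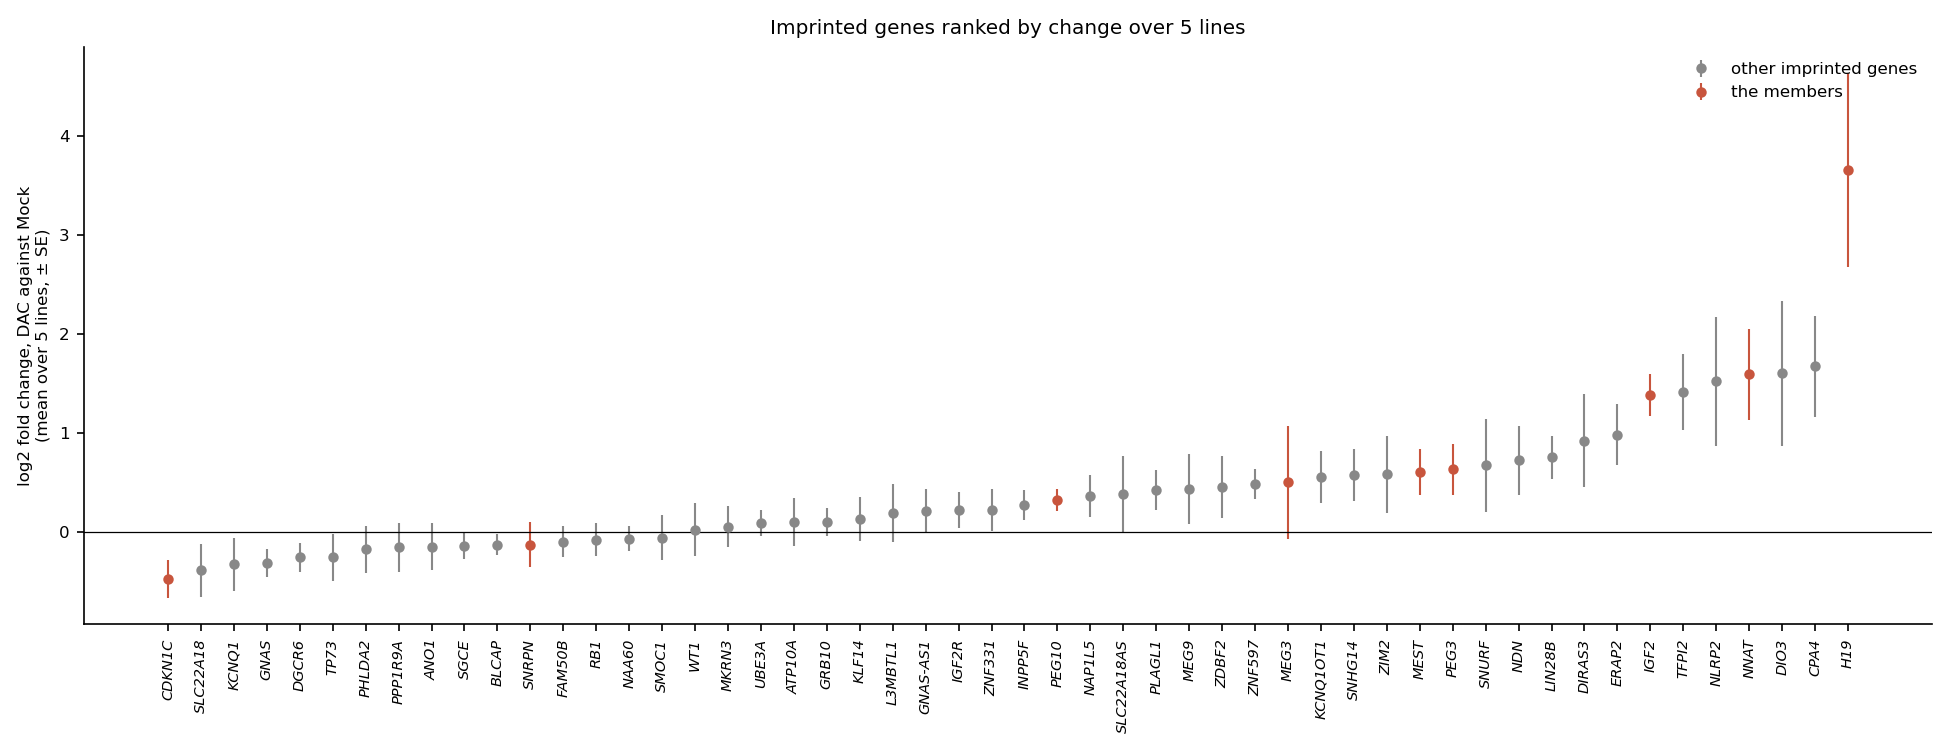
Log2 fold change over 5 lines (DAC against Mock, with standard error bars) of the 9 tested members (red) and the 43 other imprinted genes tested (grey), ranked by value. H19 at 3.65 is the highest and CDKN1C at -0.48 the lowest, and none passes an adjusted p of 0.05.

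The proteins that keep imprints through cell division include the maintenance methyltransferase DNMT1, its partner UHRF1 and the zinc finger protein ZFP57. The list of 14 genes tested here also held DNMT3A, DNMT3B, TET1, TET2, TET3 and CTCFL, so not every gene on it keeps imprints. Of the 14, 3 were higher at an unadjusted p under 0.05 (8.07% of all genes) and 0 lower (4.40%). By limma over 5 lines 0 passed the adjusted threshold, and the median was 0.19. CTCFL, a testis paralog of CTCF, had a log2 fold change of 3.31 (SE 0.44, adjusted p = 0.0716), from 0.180 ± 0.251 to 2.25 ± 1.15 FPKM, and with H1792 added its adjusted p was 0.0423. ZFP57 had 1 read or none in every Mock library. After DAC it was at 2.03 FPKM in PC9, 30.2-fold a floor of 3 reads, and its log2 fold change over 5 lines was 1.88. DNMT3B, a de novo methyltransferase, was the third, at 0.98 (SE 0.16, adjusted p = 0.110). The lowest were CTCF at -0.19 and TRIM28, the corepressor that ZFP57 recruits, at -0.16.

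No gene listed as acting with IGF2, CDKN1C or DLK1 passed the adjusted threshold. Of 14 tested receptors, binding proteins and adaptors of IGF2, 0 passed either threshold (median 0.19); IGFBP7 was at 0.69 and IGFBP6 at 0.39, IRS2 at -0.25 and IRS1 at -0.13. Of 11 relatives and partners of CDKN1C (median 0.03), CDKN1A, which encodes p21, was the 1 gene higher at an unadjusted p under 0.05 (8.07% of all genes), at 0.71 (SE 0.16, adjusted p = 0.204 from limma), followed by CCNE1 at 0.32, and the lowest were CDKN2C at -0.50 and CDKN2A at -0.29. Of 12 genes of DLK1 and Notch signalling (median 0.33), 3 were higher at an unadjusted p under 0.05, beside the same 8.07% of all genes, and 0 passed the adjusted threshold, with DLL4 at 0.70 and NOTCH4 at 0.61 highest, HEY1 at -0.46 and DLL3 at -0.36 lowest, and JAG1, the third, at 0.42.

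Over the 12 mRNA libraries, the genes whose log2 levels ran most like each member were described by Pearson's r among 12285 genes with a mean of at least 1 FPKM; both libraries of a line share that line's background, so this is a description only. They were NCBP3 and RYBP for H19 (r = 0.932 and 0.920), RCOR2 and ZNF211 for IGF2 (0.869 and 0.813), ABHD17C and FOXQ1 for MEST (0.973 and 0.952), and MMP10 and ZNF674 for PEG3 (0.967 and 0.955). For PEG10 they were MTRNR2L8 and TBC1D14 (0.973 and 0.931), for SNRPN LOC100128108 and IFT20 (0.977 and 0.967), for NNAT FNDC3B and CSGALNACT2 (0.906 and 0.878), and for MEG3 GGT5 and SFMBT2 (0.963 and 0.933). CDKN1C had the weakest likeness, with MAP2K2 and PFDN5 at 0.699 and 0.676.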

How the data were processed

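The members and gene lists were chosen with earlier results of these data known. Per the study's methods, the authors trimmed mRNA reads of a stranded poly(A) kit, used bowtie2 within RSEM for alignment (hg19), obtained gene counts from the GenomicAlignments and GenomicFeatures packages over a lifted GENCODE annotation, and made the deposited FPKM values with DESeq2 (1.24.0 in the submitters' processing notes, which list TopHat2 2.1.1). The authors mapped ATAC-seq reads with BWA 0.7.17-r1188 and called peaks per library with MACS2 2.2.5; the deposited lists give fold enrichment (a ratio over background) and a −log10 q-value per peak, annotated by the authors with ChIPseeker 1.20.0. The deposited table also holds a mean normalized signal per gene, used only to recover reads, and the authors' own comparison (fold changes, standard errors, p-values), which was not used.

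Reads were recovered for 100% of checked values within 0.02 read. Genes with a mean of at least 0.1 FPKM were fitted as log2(FPKM + 0.1) with limma 3.58.1 (R 4.3.3), cell line as block and a trend, with Benjamini-Hochberg adjustment over 22603 genes and a threshold of 0.05; the fit was tested on simulated data. Mock and DAC libraries are paired by cell line, per the labels. p-values measure the spread between lines. Ratios within a line carry exact 95% counting intervals, and 0 reads were replaced by a floor of 3 reads. A fold over that floor carries no interval and is not a lower limit. Library size differs by line. H1299 had the most reads, but these were mostly counted in pairs, so their number overstates its depth beside the other lines. Promoter peaks lie within 3000 bp of a start in the authors' annotation. Such a start can lie inside the longer GENCODE span of the gene, as for H19, PEG3, SNRPN and MEG3. Gene positions come from GENCODE (GRCh37), and promoter windows from RefSeq (GRCh38.p14), matched exactly to GRCh37. Genes named are the members, in each list those past the threshold or else its 2 highest and 2 lowest, cluster genes past 2-fold in the same line as a member, overlapping or near-identical genes, and the 2 most alike by Pearson's r. The listed genes MEG8, MESTIT1 and SNHG14 were matched by ID; IPW, MCTS2P and the marker PECAM1 were not analysed here. Alternatives were H1792 as a 6th line, no block, other pseudocounts, filters and scalings, voom on recovered reads, no trend, each line left out, and for peaks a 1000 bp window, a q-value under 0.01 and exchanged labels.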

Additional observations from a re-analysis of the deposited data

Results flagged for a closer look

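In groups of 5 lines, 27 sets of member values (log2(FPKM + 0.1) in Mock, after DAC, and the log2 change) were examined for a line apart from the other 4, with a gap to the nearest line of over 0.71 of the range. Such a gap arises by chance in about 1 of 20 sets, or 1.35 of 27, and 2 were found. IGF2 in Mock was -1.08 in CL1-0, against -3.02 to -2.52 in the other lines. CDKN1C in Mock was -0.72 in A549, against -0.32 to -0.26 in the other lines, on 28 reads, with counting intervals that overlapped those of its neighbours.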

How the results depend on the processing

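Over the 15 alternatives, H19, IGF2, MEST, PEG3, PEG10, NNAT and CDKN1C kept the direction of their change over lines in each that could be fitted (IGF2, NNAT and CDKN1C were not tested at a mean FPKM of at least 1). IGF2 passed the adjusted threshold with H1792 added (log2 fold change 1.50) and with voom on recovered reads (2.31, adjusted p = 0.0188 from limma), so 1 member was then called in place of 0; its adjusted p over all alternatives lay between 0.0188 and 1.00. SNRPN turned to 0.04 with H1792 added and to 0.00 without H1299, and MEG3 to -0.15 without A549. With a line left out the log2 fold changes lay from 2.78 to 4.29 for H19, 1.35 to 1.46 for IGF2, 0.47 to 0.84 for MEST, 0.43 to 0.77 for PEG3, 0.29 to 0.38 for PEG10, -0.34 to 0.00 for SNRPN, 1.06 to 1.85 for NNAT, -0.15 to 0.98 for MEG3 and -0.58 to -0.41 for CDKN1C. The number of all genes called higher was 27, and 53 with H1792 added, 10 without the cell line block, 0 with a pseudocount of 1, 2 with no filter, 17 with quantile normalization, 199 with voom, 6 with no trend, and 0 (without A549 or CL1-5) to 22 (without H1299) with a line left out, where the number lower was 0 to 1. Without the block 0 members were called, as with it. In the list that held the imprint maintenance genes, 1 gene was called, in place of 0, in 3 settings. They were H1792 added, a mean of at least 1 FPKM, and voom. No gene of the other lists was called in any fit. The median log2 fold change of all genes was 0.07, and -0.04 with quantile normalization and 0.17 with rescaling to a common sum or voom. With a pseudocount of 1, the members at least 2-fold higher numbered 1 in CL1-0, 1 in CL1-5, 1 in PC9, 0 in H1299 and 0 in H1792, and with 0.01 SNRPN in H1299 made 1 member 2-fold lower. Members with a promoter peak after DAC numbered 5 in A549, 5 in the library labelled PC9 and 3 in H1299 within 1000 bp. Except where an alternative fits fewer libraries or genes, the cause of these differences was not tested. Depth limits IGF2, NNAT, SNRPN in H1299 and H19 in H1299 and H1792, with under 30 Mock reads in most lines. It also limits CDKN1C, with 15 Mock reads in H1792 to 104 in H1299. PEG3 had 0 Mock reads in A549, PC9 and H1792, and MEG3 had 0 in CL1-0, PC9, H1299 and H1792.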
